A study of Mus musculus with 24 samples.

Results

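The red cell glycolysis genes are 9 of the 21887 protein-coding genes in the gene table used here: Slc2a1, Hk1, Gpi1, Pfkm, Aldoa, Pgk1, Bpgm, Pklr and Ldha. They were chosen by name, and every peak in the body of one of them or within 5 kb of either annotated end (mm10) was taken. This gave 30 of 28902 H3K27ac peaks without doxycycline, 26 of 23341 with it, 63 of 119362 H3K4me1 peaks without doxycycline and 57 of 101388 with it, on assembled chromosomes. Over the whole lists, treated peaks were fewer and wider. Median width was 1003 bp untreated and 1353 bp treated in H3K27ac, and 903 bp and 1153 bp in H3K4me1. All 9 genes had peaks in each of the 4 lists, so none was lost to a filter.

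The peaks come from ChIP-seq of TgSpi1 mouse erythroleukaemic cells (#763), grown with erythropoietin (EPO) and derived from bone marrow. These cells carry a Spi1 transgene and overexpress SPI1 (PU.1), an ETS family factor of myeloid and B cells. The Dox_Treated group had received doxycycline for 48 h, which switches on a short hairpin RNA against Spi1, and the Dox_Untreated group had not. Both groups therefore share the transgene, the leukaemic origin and EPO. The promoter of the transgene is not given in the sources used here, 1 cell isolate is named, and no group had doxycycline without the hairpin, so effects of the drug and of lower SPI1 cannot be told apart. Each H3K27ac list stands for replicates 1 and 2 together and each H3K4me1 list for replicate 1. There is thus 1 list per mark and condition, no value below has a replicate error, and no difference between conditions could be tested. The read depth behind the lists is unknown.

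A mature red cell has no mitochondria and makes its ATP by glycolysis alone. GLUT1 (Slc2a1) is a glucose transporter, and its part in mouse red cells was not examined here. In glycolysis, hexokinase (Hk1) traps glucose, which passes through glucose phosphate isomerase (Gpi1), phosphofructokinase (Pfkm) and aldolase (Aldoa). Phosphoglycerate kinase (Pgk1), pyruvate kinase (Pklr) and lactate dehydrogenase (Ldha) act after them. Bisphosphoglycerate mutase (Bpgm) runs a side branch of red cells, whose product lowers the oxygen affinity of haemoglobin. H3K27ac marks active promoters and enhancers. H3K4me1 marks enhancers, active or not, and tends to be low directly at active start sites.

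The cell type label was read against H3K27ac at defining genes, over the same windows. Of 9 erythroid markers, 7 had H3K27ac without doxycycline and 9 with it, with summed lengths of 37597 bp and 58727 bp. Of 6 myeloid markers, 1 had any in either list (353 bp and 303 bp), and Itgam, Mpo, Elane, Lyz2 and Ly6c2 were at 0. Of 2 T cell markers 1 had H3K27ac (367 bp and 1017 bp), with Cd4 at 0. Of 2 B cell markers 1 had H3K27ac, over 2856 bp untreated and 2753 bp treated, more than the myeloid and T cell markers had in either list. The erythroid marker length was thus longer with doxycycline, while the summed H3K27ac length at the 9 glycolysis genes was 68005 bp untreated and 63543 bp treated. The part of the erythroid marker difference in the results below was not tested.

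The sequences just upstream of the annotated start are shown for 4 members that span the range of the H3K27ac results: Pklr and Bpgm, where acetylation around the start was longer with doxycycline, Slc2a1, where the start kept its peak and the peaks in the gene body were missing from the treated list, and Pgk1, with a single start peak in both lists. They are RefSeq sequence on GRCm38.p6 (the assembly of mm10), read 5′ to 3′ on the plus strand and ending at the base before the annotated gene. Capitals mark matches on either strand to letters that 4 kinds of factor are known to prefer, and matches may overlap. GATA factors were searched as AGATAA, with TGATAA as the other form. KLF factors were searched as CCNCNCCC, and HIF as ACGTG, with GCGTG as the other form. The PU.1 core was searched as GAGGAA. The last bases of the Slc2a1 stretch also belong to the lncRNA gene Gm52706 (chr4:119099744-119108749).
Pklr, chr3:89135892-89136121: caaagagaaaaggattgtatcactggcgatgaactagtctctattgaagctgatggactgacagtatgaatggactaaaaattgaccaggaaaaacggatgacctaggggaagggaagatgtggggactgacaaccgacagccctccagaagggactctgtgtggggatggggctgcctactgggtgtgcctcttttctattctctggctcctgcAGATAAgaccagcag
Bpgm, chr6:34476106-34476355: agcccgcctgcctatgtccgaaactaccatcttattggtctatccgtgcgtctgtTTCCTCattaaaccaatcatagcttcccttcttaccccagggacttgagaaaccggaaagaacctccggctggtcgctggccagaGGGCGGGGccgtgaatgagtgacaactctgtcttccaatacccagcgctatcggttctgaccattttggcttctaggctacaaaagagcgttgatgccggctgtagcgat
Slc2a1, chr4:119108495-119108744: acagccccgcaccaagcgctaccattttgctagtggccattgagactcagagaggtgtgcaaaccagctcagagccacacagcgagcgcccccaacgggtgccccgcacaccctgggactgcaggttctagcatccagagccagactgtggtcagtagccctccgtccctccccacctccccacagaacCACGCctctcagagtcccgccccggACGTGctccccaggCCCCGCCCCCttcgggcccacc
Pgk1, chrX:106186850-106187099: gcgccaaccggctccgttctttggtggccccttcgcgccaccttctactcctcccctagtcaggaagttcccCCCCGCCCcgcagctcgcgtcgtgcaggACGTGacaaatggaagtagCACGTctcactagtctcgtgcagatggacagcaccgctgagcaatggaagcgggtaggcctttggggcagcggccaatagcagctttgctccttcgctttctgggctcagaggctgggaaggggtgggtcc

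The Pklr stretch holds 1 of these matches, AGATAA at position -35, counted back from the listed start, which itself lies 20 bp inside the annotated gene. Bpgm has GGGCGGGG at -110, a KLF match on the other strand, and TTCCTC at -195, a PU.1 core match on the other strand. Slc2a1 has 2 overlapping KLF matches at -22 and -20 and HIF matches at -61 and -36. Pgk1 has a KLF match at -178 and HIF matches at -150 and -131. Such short strings are common. Over the 250 bases upstream of 32851 listed starts, 16.6% held a GATA match, 45.9% a KLF match, 38.6% a HIF match and 23.3% a PU.1 core match. The table lists 17 starts for the 9 members, of which 5, 11, 10 and 7 held one, in the same order. By gene, GATA matches were found at Aldoa, Pfkm and Pklr, and PU.1 core matches at Aldoa, Bpgm, Hk1 and Pfkm. Ldha had 5 HIF matches upstream of its first listed start, the most of the 17 starts, some of them 1 palindrome counted on both strands. A match describes letters in this window and not binding.

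H3K27ac at the members was longer with doxycycline at 3 genes and shorter at 6. Covered length, the bp under peaks in the gene and its 5 kb flanks, was longer at Bpgm, Hk1 and Pklr and shorter at Aldoa, Slc2a1, Pfkm, Ldha, Pgk1 and Gpi1. The median difference, treated minus untreated, was -500 bp and the median ratio 0.882, against -7 bp and 1 over all 12314 genes with any H3K27ac. Among those genes 46.7% were longer and 50.5% shorter. By a fixed rule of at least 1.5-fold, 1 member was longer, Bpgm, and 2 were shorter, Slc2a1 and Aldoa. In the background 11.5% of genes were longer and 13.3% shorter by that rule, so with 9 genes the counts stand near the background. Against the 7122 genes with H3K27ac over a listed start in both lists, which all 9 members also had, 45.3% were longer and 51.8% shorter, 6.5% and 8.89% by at least 1.5-fold.

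H3K4me1 was longer with doxycycline at 5 members and shorter at 4, and none passed 1.5-fold. The longer ones were Hk1, Pklr, Bpgm, Pfkm and Aldoa, and the shorter ones Slc2a1, Ldha, Pgk1 and Gpi1. The median difference was 700 bp and the median ratio 1.06, against 391 bp and 1.06 over 16363 genes with any H3K4me1. In that background 60.7% of genes were longer and 38.7% shorter, and 12.1% were longer and 9.1% shorter by at least 1.5-fold. Among the 7122 genes with an acetylated start, H3K4me1 was longer at 65% and shorter at 34.6%, and past 1.5-fold at 4.68% and 1.53%. Both marks were longer at Hk1, Bpgm and Pklr, both were shorter at Slc2a1, Gpi1, Pgk1 and Ldha, and at Pfkm and Aldoa H3K27ac was shorter while H3K4me1 was longer.

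**Figure D1:**
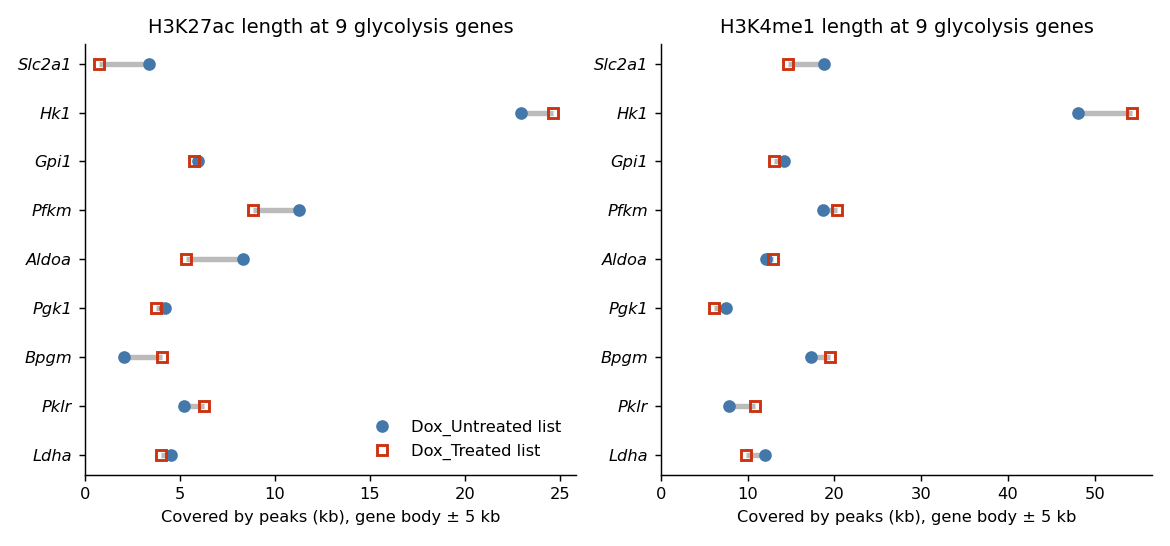
Length covered by peaks (kb, x axis) in the gene body and 5 kb either side at each of the 9 genes (y axis), for H3K27ac (left) and H3K4me1 (right); filled circles are the Dox_Untreated list and open squares the Dox_Treated list, 1 list each, with a grey bar joining them. Bpgm went from 2052 bp to 4052 bp of H3K27ac, while Slc2a1 went from 3409 bp to 753 bp.

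**Figure D2:**
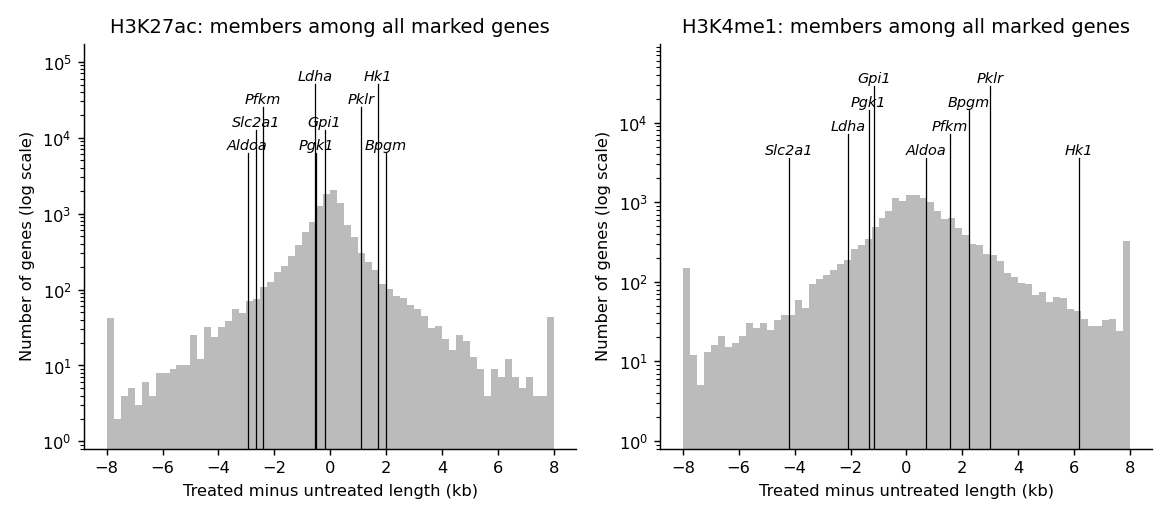
Number of genes (y axis, log scale) by treated minus untreated covered length (x axis, kb) over all genes with any H3K27ac (left, 12314) or any H3K4me1 (right, 16363); the end bars also hold genes beyond the axis, and black lines mark the 9 members. Aldoa, Slc2a1 and Pfkm lie in the lower tail of H3K27ac, and Hk1 and Slc2a1 at opposite ends of H3K4me1. Differences are not scaled to the length marked at each gene.

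Slc2a1, the glucose transporter (chr4:119108745-119137330), had the largest relative difference in H3K27ac among the members. It was covered over 3409 bp in 3 peaks without doxycycline and over 753 bp in 1 peak with it, a ratio of 0.221, and 3.87% of marked genes had a difference at or below its -2656 bp. The peak over the start was 753 bp wide in both lists and shifted by 50 bp. The difference came from 2 peaks inside the gene that the treated list lacked. The wider, at chr4:119126749-119129001, was 2253 bp and lay 18004 bp to 20256 bp downstream of the start, wider than or equal to 81.7% of its list. The narrower, at chr4:119121599-119122001, was 403 bp. Both were covered by H3K4me1 over their full width in both conditions.

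H3K4me1 at Slc2a1 covered 18809 bp without doxycycline and 14603 bp with it. Of all genes with H3K4me1, 2.82% had a difference at or below its -4206 bp, and its ratio was 0.776. With gene ends alone, H3K4me1 was 6594 bp and 6841 bp. The H3K4me1 peak around the wider of these stretches was 5553 bp untreated and 3053 bp treated. At the start the pattern was different: untreated H3K4me1 lay in 2 peaks on either side of the start, and treated H3K4me1 was 1 peak of 2353 bp across it. Within 500 bp of the start, H3K4me1 covered 604 bp untreated and 1001 bp treated. A lncRNA gene, Gm12867 (chr4:119130288-119132168), lies inside Slc2a1, and the untreated H3K4me1 peak of 703 bp there, at chr4:119131299-119132001, had no treated counterpart.

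Hk1, the first enzyme of the pathway (chr10:62268855-62379920, minus strand), carried the most marked sequence of the 9 genes, and is also the longest of them. H3K27ac covered 22968 bp in 6 peaks untreated and 24671 bp in 7 peaks treated, and H3K4me1 48086 bp in 14 peaks and 54248 bp in 16. The gene has 2 listed starts, and no H3K27ac lay over the first in either list. The second start, 39499 bp downstream, lay in the widest H3K27ac peak of the 9 genes, 11653 bp untreated (chr10:62331299-62342951) and 14403 bp treated (chr10:62330999-62345401). This was wider than or equal to 99.9% of peaks in each list. On the upstream side it reached 2530 bp from that start untreated and 4980 bp treated, and on the downstream side 9122 bp and 9422 bp. The lncRNA gene Hk1os (chr10:62340234-62363611) spans this start, and histone marks of the 2 genes cannot be told apart there.

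Further into Hk1, acetylation differed in both directions. A peak of 3953 bp untreated, 65169 bp to 69121 bp from the 5′ end, was 2 peaks of 1303 bp and 1003 bp treated. The treated list had 2 peaks without an untreated counterpart, of 1203 bp (chr10:62293899-62295101) and 553 bp (chr10:62282799-62283351). The untreated list had 1 such peak, of 553 bp. H3K4me1 formed a treated peak of 24753 bp (chr10:62315349-62340101) where the untreated list had separate peaks of up to 15703 bp, and its score by the authors was at or above 99.9% of that list. The difference in H3K4me1, 6162 bp, was matched or exceeded by 3.19% of marked genes. That rank is in bp, and Hk1 had 48086 bp of H3K4me1 untreated, against a median of 6918 bp over marked genes. Its ratio was 1.13, against a median of 1.06. When only the wider 50% of each list was used, H3K27ac at Hk1 was 21409 bp untreated and 19706 bp treated, the opposite direction. The width cut differed between the lists, with median H3K27ac widths of 1003 bp untreated and 1353 bp treated. It left out the treated peaks of 1303 bp, 1203 bp and 1003 bp.

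Pfkm, the muscle-type phosphofructokinase subunit and a regulated step of glycolysis (chr15:98092589-98132447), carried H3K27ac over 11268 bp in 6 peaks untreated and 8865 bp in 5 treated, a ratio of 0.787. Its H3K4me1 was 18718 bp and 20265 bp. The table lists 4 starts, all under H3K27ac in both lists. Over the middle pair of starts, the H3K27ac peak measured 3603 bp untreated and 3103 bp treated, and over the fourth 1103 bp and 853 bp. The first start lies inside the neighbouring gene Senp1 (chr15:98038744-98093569), a SUMO protease gene, and its peak was 3253 bp and 2853 bp. A peak of 1753 bp in the same gene, at chr15:98089049-98090801, was found untreated alone and had H3K4me1 over its full width in both conditions. With gene ends alone, H3K27ac was 5006 bp and 2853 bp, shorter by at least 1.5-fold. All H3K27ac peaks counted there lie in Senp1 or over its end. With flanks of 2 kb, H3K27ac was 9728 bp and 8865 bp, under 1.5-fold. Without peaks within 1 kb of the ends of other genes, H3K27ac was 8015 bp and 6012 bp. H3K4me1 was then 17115 bp and 13709 bp, shorter rather than longer with doxycycline. That filter kept the untreated H3K4me1 peak of 4903 bp upstream of the gene and left out the treated peak of 4703 bp that overlapped it. The opposite direction thus came from an unequal cut at overlapping peaks.

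Aldoa, aldolase A (chr7:126795234-126800994, minus strand), was the member most densely covered, with H3K27ac over 52.8% of its window untreated and 34.0% treated. In bp this was 8315 and 5359, a ratio of 0.644, and 3.18% of marked genes had a difference at or below -2956 bp. The main peak, over the inner pair of its 3 listed starts, was 3753 bp and 3453 bp. Upstream of the gene, stretches of 653 bp (chr7:126801149-126801801) and 1003 bp (chr7:126803049-126804051), were acetylated untreated alone and lay under H3K4me1 in both conditions. Downstream, a peak that also lies at the end of Ppp4c, a phosphatase subunit gene, was 2403 bp and 1503 bp. H3K4me1 was 12174 bp and 12874 bp. With flanks of 20 kb it was 24935 bp and 24789 bp, and with scaled lengths 12174 bp and 12120 bp. With flanks of 2 kb, H3K27ac was 5077 bp and 3856 bp, with 20 kb 13080 bp and 9218 bp, and in the wider 50% of each list 6156 bp and 4956 bp, all under 1.5-fold.

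**Figure D3:**
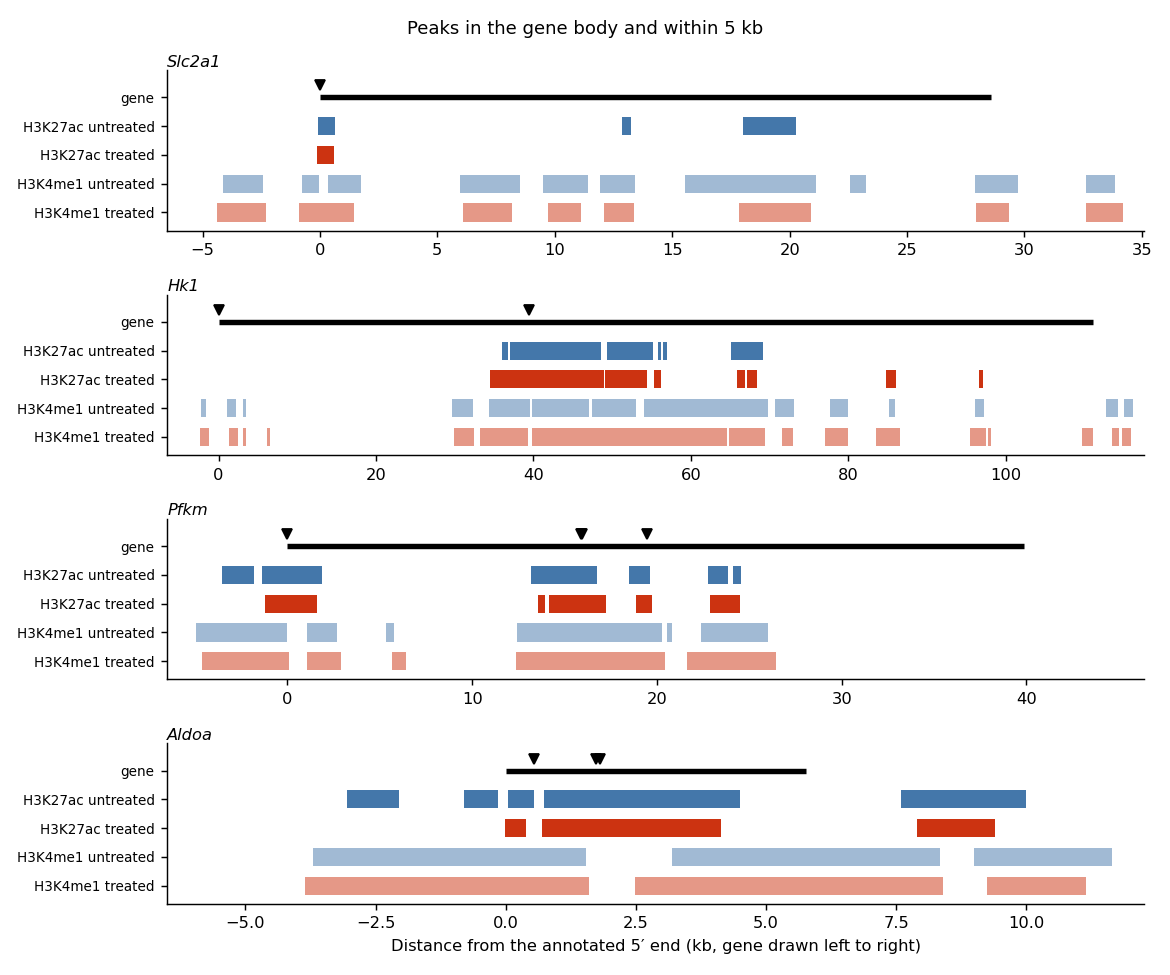
Peaks of the 4 lists along Slc2a1, Hk1, Pfkm and Aldoa by distance from the annotated 5′ end (kb, x axis), with each gene drawn left to right; dark boxes are H3K27ac, pale boxes H3K4me1, blue untreated and red treated, the black bar is the gene and triangles are listed starts. At Slc2a1 the acetylated stretch at 18004 bp to 20256 bp is missing from the treated row, with H3K4me1 below it in both rows.

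Bpgm, the enzyme of the red cell side branch (chr6:34476356-34505136), was the member with the largest relative difference upward. H3K27ac covered 2052 bp untreated and 4052 bp treated, a ratio of 1.97, and 5.66% of marked genes had a difference of at least 2000 bp. At the start, 2 untreated peaks of 553 bp each lay within 1 treated peak of 1903 bp (chr6:34475049-34476951). That peak reached 1307 bp upstream and 595 bp downstream of the start, against 107 bp and 445 bp for the untreated peak over it. A further acetylated stretch, at the upstream edge of the window, was 953 bp untreated and 1953 bp treated, and a treated peak of 653 bp (chr6:34473099-34473751) had no counterpart. All untreated H3K27ac at Bpgm, 100% of its bp, lay under treated H3K27ac as well.

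H3K4me1 at Bpgm covered 17255 bp untreated in 9 peaks and 19496 bp treated in 6. Neither list had H3K4me1 over the start, with 254 bp and 454 bp within 500 bp of it. Just inside the gene, untreated peaks of 2503 bp and 1803 bp were joined in 1 treated peak of 5153 bp. Fewer and wider peaks were also a trait of the whole treated list.

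Pklr, the pyruvate kinase of red cells and liver (chr3:89136122-89146815), had 1 H3K27ac peak in each list. It was 5203 bp untreated (chr3:89132199-89137401) and 6303 bp treated (chr3:89131299-89137601), a ratio of 1.21. Both of its listed starts, 20 bp and 501 bp into the annotated gene, lay inside it. As background, the upstream start of this gene is the red cell promoter and the downstream one the liver promoter. Most of the peak lay upstream of the gene, reaching 3943 bp from the first start untreated and 4843 bp treated. The H3K4me1 peak over the same place was 6753 bp and 8803 bp. It reached 1709 bp downstream of the first start untreated and 3459 bp treated, and unlike at Bpgm and Pgk1 it ran across the start in both lists. H3K4me1 in the whole window was 7800 bp and 10800 bp, a ratio of 1.38, with every untreated bp also marked treated. With flanks of 2 kb, H3K4me1 was 4233 bp and 6983 bp, past 1.5-fold, while H3K27ac was 3280 bp and 3480 bp.

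Pgk1, phosphoglycerate kinase (chrX:106187100-106203699), had 1 H3K27ac peak over its start, 4253 bp untreated and 3753 bp treated, with the treated peak wholly inside the untreated one. H3K4me1 flanked the start without covering it and measured 7515 bp and 6159 bp. The untreated list had 3 narrow H3K4me1 peaks within the gene, of 403 bp to 503 bp, with no treated counterpart. With peaks within 1 kb of each other merged, H3K4me1 was 7515 bp and 7953 bp. Merging counts the unmarked gaps between joined peaks. It filled the treated gap across the start, but not the wider untreated gap there.

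Gpi1, the isomerase (chr7:34201327-34230336, minus strand), carried H3K27ac over 5981 bp and 5781 bp, in 3 peaks each, and over 6878 bp and 5781 bp with peaks within 1 kb of each other merged. Merging filled the unmarked gap between the start peak and the upstream peak in the untreated list, but not the wider treated gap. The Gpi1 enzyme turns glucose phosphate into fructose phosphate. Its start peak was 2153 bp and 1903 bp. A peak upstream was 3003 bp in both lists and lies over the lncRNA genes Gm12762 and Gm12758, and a peak downstream, at the neighbour Pdcd2l, was 1253 bp and 1603 bp. H3K4me1 was 14209 bp and 13056 bp, and left the start uncovered in both lists. Without peaks near other genes, H3K4me1 was 11418 bp and 12303 bp. That filter left out untreated peaks of 1953 bp and 1253 bp, but kept treated peaks of 803 bp and 1353 bp that overlapped them. The opposite direction thus came from an unequal cut at overlapping peaks.

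Ldha, lactate dehydrogenase A (chr7:46842274-46855627), had its 2 listed starts under 1 H3K27ac peak, 3203 bp untreated and 2653 bp treated. A second H3K27ac peak upstream of the gene was 1353 bp in both lists. In all, H3K27ac covered 4556 bp and 4006 bp. In the wider 50% of each list it was 4556 bp and 2653 bp, shorter by at least 1.5-fold. The upstream peak of 1353 bp passed that width cut untreated but not treated, with median H3K27ac widths of 1003 bp and 1353 bp in the lists. H3K4me1 was 11965 bp and 9868 bp. The largest part of this difference lay at the 3′ end, where an untreated peak of 3553 bp was 803 bp treated. Within 500 bp of the second start, H3K4me1 covered 484 bp untreated and 934 bp treated.

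**Figure D4:**
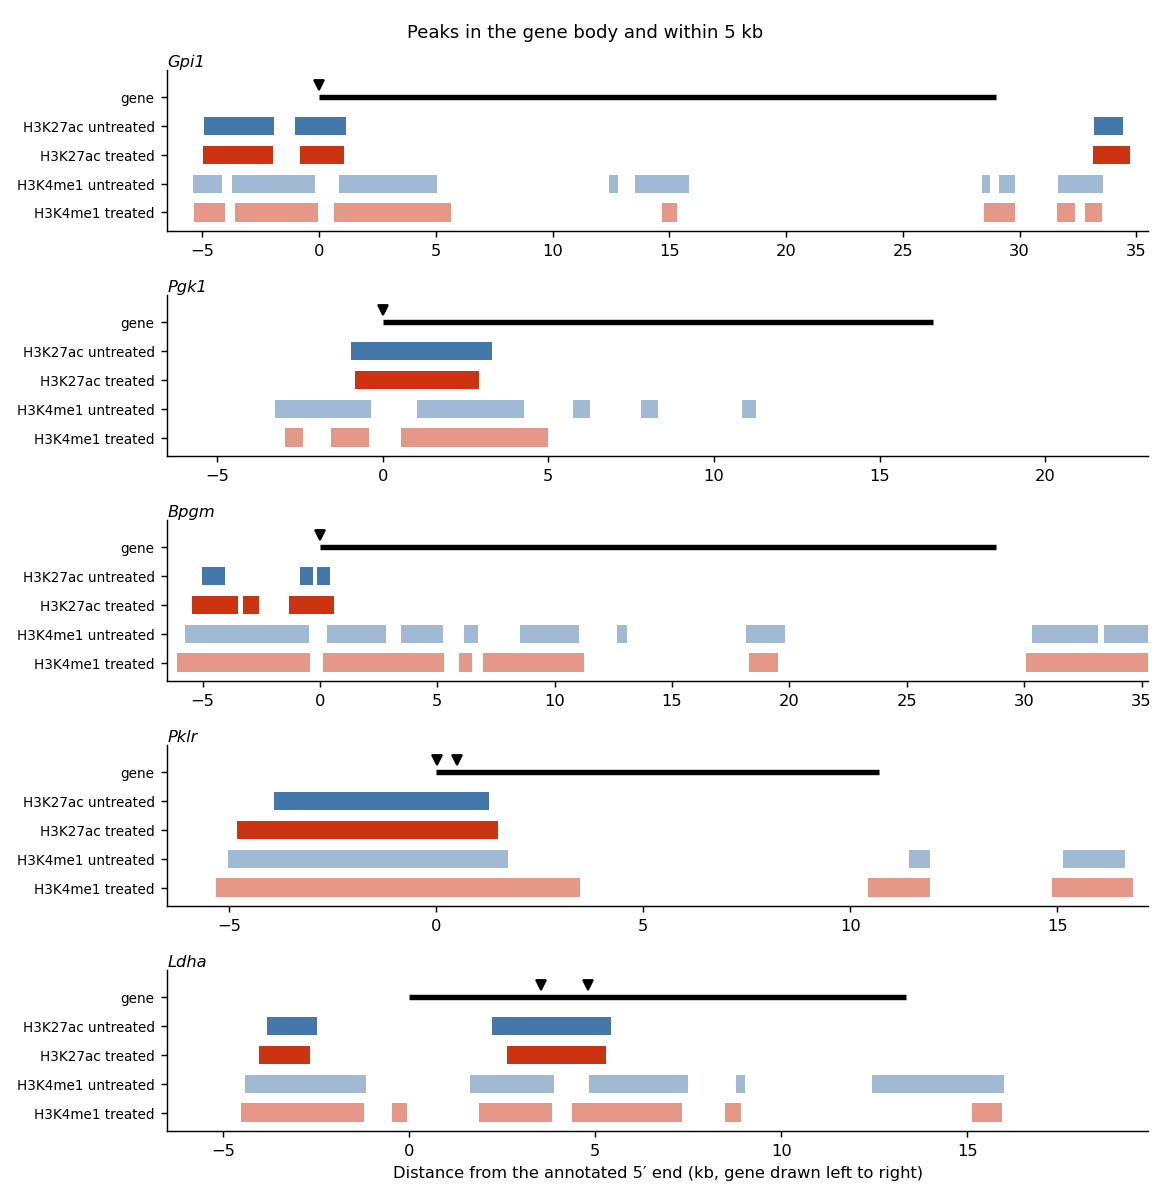
Peaks of the 4 lists along Gpi1, Pgk1, Bpgm, Pklr and Ldha by distance from the annotated 5′ end (kb, x axis), with each gene drawn left to right; dark boxes are H3K27ac, pale boxes H3K4me1, blue untreated and red treated, the black bar is the gene and triangles are listed starts. The acetylated stretch around the start is wider in the treated row at Bpgm (a treated peak of 1903 bp over untreated peaks of 553 bp each) and Pklr, and narrower at Pgk1 and Ldha.

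All 9 members had H3K27ac over at least 1 listed start in both lists. The rule for the members did not ask for this, but they were chosen with earlier results of these data known. Over 17492 protein-coding genes with a listed start, which include genes without any H3K27ac, the share was 41.9% untreated and 44.0% treated. Of the 17 starts, 15 lay in H3K27ac in each list, and the exceptions were the first start of Hk1 and the first of Aldoa. That Hk1 start had no H3K27ac within 500 bp in either list. The Aldoa start lay in a gap between peaks, with 804 bp untreated and 704 bp treated covered within 500 bp of it. H3K4me1 lay over 8 starts untreated and 10 treated. Starts covered only in the treated list were those of Slc2a1, the first of Pfkm and the second of Ldha, and the second start of Hk1 was covered only untreated.

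Of untreated H3K27ac peaks at the members, 24 of 30 overlapped a treated one by at least 1 bp, 80% with an exact 95% interval of 61.4 to 92.3%, against 72.6% of the whole list. Of treated ones 23 of 26 overlapped, 88.5% (69.8 to 97.6%), against 82.9%. In H3K4me1 these shares were 56 of 63, 88.9% (78.4 to 95.4%), against 73.3%, and 53 of 57, 93.0% (83.0 to 98.1%), against 79.2%. These intervals hold for counting error alone, and peaks of 1 gene are not independent. Wider peaks also meet an overlap of 1 bp more easily, and member peaks were wider than their lists. In untreated H3K4me1 the median width was 1903 bp at the members and 903 bp in the list. Member peaks there had a median of 2278 bp with a counterpart and 453 bp without. H3K27ac peaks without a counterpart numbered 6 untreated, at Slc2a1, Hk1, Pfkm and Aldoa, and 3 treated, at Hk1 and Bpgm. In 8 of these 9, H3K4me1 covered the full width in both conditions, and the other, in Hk1, was covered over 70.9% untreated. This was common in the whole lists too: of untreated-only H3K27ac peaks 88.7% lay fully under treated H3K4me1, and of treated-only ones 78.7% lay fully under untreated H3K4me1.

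The rest of the pathway was read from a list of 27 other genes of glycolysis, its isozymes, its regulators and lactate export. H3K27ac was longer with doxycycline at 8 and shorter at 14 of the 23 with any, with 3 longer and 3 shorter (Hkdc1, Pkm and Pfkfb3) by at least 1.5-fold, and a median difference of -103 bp. H3K4me1 was longer at 18 and shorter at 7 of 25, with a median difference of 1000 bp. Pkm, the pyruvate kinase gene of most other tissues, carried H3K27ac over 4556 bp without doxycycline and 1856 bp with it, a ratio of 0.407. Its H3K4me1 was 18821 bp and 20568 bp. Pklr and Pkm, which encode the same step, thus stood on opposite sides in H3K27ac and on the same side in H3K4me1; the difference between them was not tested.

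Among the other isozyme genes, Pfkp, platelet phosphofructokinase, had the largest H3K27ac difference downward of the list, with 14374 bp and 10565 bp, and Pfkl, the liver type, 3306 bp and 3203 bp. Hk2, the insulin-regulated hexokinase, had 5815 bp and 4006 bp, and Hk3 had no peak in any list. Aldoc, the brain aldolase, had 2509 bp and 1806 bp, and Ldhb, the heart-type dehydrogenase, had no peak in any list. Slc2a3, the gene of the GLUT3 transporter, had 10162 bp and 9468 bp. The largest H3K27ac difference upward was at Slc16a3, a lactate exporter, with 2503 bp and 4106 bp. In H3K4me1 the extremes were Pfkfb2, which makes the activator of phosphofructokinase, with 13233 bp and 19029 bp, and Hk2, with 27307 bp and 25145 bp.

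A further list held 12 genes of the pentose phosphate pathway and glutathione, the source of reducing power that protects red cells from oxidation. H3K27ac was longer at 7 and shorter at 5, H3K4me1 longer at 9 and shorter at 3, and none passed 1.5-fold in either mark. The extremes in H3K27ac were Gclc, the catalytic subunit of glutathione synthesis, with 6465 bp and 7929 bp, and Pgd, phosphogluconate dehydrogenase, with 4760 bp and 3656 bp. In H3K4me1 they were Gsr, glutathione reductase, with 21074 bp and 25021 bp, and again Pgd, with 10180 bp and 9416 bp.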

How the data were processed

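Histone marks were mapped by ChIP-seq, and 4 of the 24 samples' peak lists were used; the other groups were not analysed here. Per the submitters' processing notes, the build was mm10 and the tools included BWA and bcl2fastq 2.17.1.14. Neither the peak caller with its thresholds nor how the authors joined the H3K27ac replicates is given in the sources used here. Peak widths are the deposited ones, in bp. The authors deposited a score per H3K4me1 peak, of unstated scale, used here for ranks within a list, and a column that may hold a p-value, which the authors deposited unnamed and which was not used. In the deposited H3K27ac lists the last column is 2 throughout and was not used.

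Coordinates were read as 1-based and closed. Gene positions and listed starts came from RefSeq tables on GRCm38.p6; exons and introns are not in them. Covered length is the bp under merged peaks in the gene and 5 kb either side. With 1 list per condition no test was possible; differences were set beside all protein-coding genes. Lengths (scipy 1.17.1, pandas 2.3.3, matplotlib 3.10.9 and numpy 2.4.6 under Python 3.11.15) equalled those of bedtools 2.31.1 for all 9 members in each list, and the code was tested on simulated data. All members were named, as were, of the other pathway lists, the isozymes and the extremes per mark. Members and lists were chosen with earlier results of these data known. Values of some listed genes are not reported here. Alternatives were other windows, peak filters, scaled lengths, another fold and a stricter overlap. Read depth is unknown, and its effect on peak widths was not tested.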

Additional observations from a re-analysis of the deposited data

How the results depend on the processing

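No paired analysis was possible because each mark and condition has 1 peak list, which carries no replicate values; for the same reason no replicate could be left out. Over 9 alternatives (flanks of 2 kb and 20 kb, gene ends alone, peaks of at least 200 bp, the better 50% of each list, equal peak numbers, peaks within 1 kb merged, scaled lengths, and no peaks near other genes), 7 of 9 members kept their direction in H3K27ac throughout; the exceptions were Hk1, at -1703 bp with the better 50% and without H3K27ac at its ends, and Slc2a1, equal at 753 bp with gene ends alone, which leave out its inner peaks. In H3K4me1 4 did (Bpgm, Hk1, Ldha and Pklr). With gene ends alone, 8 members rather than 5 were longer in H3K4me1. With flanks of 2 kb, 1 member passed 1.5-fold in H3K4me1 rather than none. With a fold of at least 2, 1 member, Slc2a1, passed in H3K27ac rather than 3. With an overlap of 50% of both peaks, 56.7% of untreated H3K27ac and 58.7% of untreated H3K4me1 peaks were shared. Causes were not tested. With peaks and no counts, the depth that limits these lengths is unknown.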

Other observations

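Farther out, 5 kb to 20 kb beyond the gene on either side, the members differed in how much was marked. No H3K27ac lay there at Slc2a1 or Hk1 in either list. At Bpgm, H3K27ac covered 7 bp untreated and 1760 bp treated, of which 1303 bp lay downstream of the gene, and H3K4me1 7234 bp and 8484 bp. The upstream H3K27ac at Bpgm, 7 bp and 457 bp, was the outer part of the peaks of 953 bp and 1953 bp described above. Upstream of Pklr, H3K27ac was absent from the untreated list and covered 903 bp treated, while H3K4me1 measured 6109 bp and 7459 bp. Downstream of it, H3K27ac measured 2809 bp and 2003 bp. At Ldha, H3K27ac lay only upstream, with 4459 bp and 3006 bp, and at Pgk1 the upstream 653 bp was found untreated alone. At Aldoa it was 4765 bp and 3859 bp. Other genes lie in these outer windows, and no peak there was assigned to a gene.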
